A study of Mus musculus with 24 samples.

Results

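The 51 genes described here encode the machinery of DNA replication and the S phase of the cell cycle, and were followed in 4 sorted CD4 T cell subsets of control and treated mice. They were chosen by symbol: each was a row of the deposited count table whose Ensembl identifier maps to the listed symbol in GENCODE M21. All 51 were found among the 39056 genes of the table, and all 51 passed the filter on low counts and were among the 18789 genes tested. The animals were female NZBWF1/j mice, the F1 of NZB and NZW mice, which become ill with a disease resembling lupus. They were 23 weeks old when dosing began. Treated mice received recombinant mouse OX40L and mouse JAG1 intraperitoneally, each at 2 mg/kg body weight, in 3 weekly injections, and age-matched controls received PBS. OX40L is the ligand of the costimulatory receptor OX40, and JAG1 (Jagged-1) is a ligand of Notch receptors. At week 26 the cells were sorted into conventional T cells (Tconv, CD4+CXCR5-GITR-), regulatory T cells (Treg, CD4+CXCR5-GITR+), follicular helper cells (TFH, CD4+CXCR5+ with high PD1 and little or no GITR) and follicular regulatory cells (TFR, CD4+CXCR5+ with high PD1 and high GITR). Each of the 8 groups of subset and treatment had 3 libraries of total RNA. The labels do not say that the 3 libraries of a group came from separate mice or whether mice were pooled, so the spread between them may be in part technical. Both ligands were always given together, so their separate effects cannot be told apart.

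A cell copies its genome in an ordered series of steps. In G1 the origin recognition complex, Cdc6 and Cdt1 load the MCM helicase onto DNA, and geminin (Gmnn) blocks reloading once S phase has begun. Cdc45 and the GINS complex then turn MCM into an active helicase, polymerases copy the strands on the sliding clamp PCNA, and ribonucleotide reductase, thymidylate synthase and thymidine kinase supply the nucleotides. Many of these genes are transcribed in late G1 by E2F factors, which cyclin E and its kinase help to release from the retinoblastoma proteins. In resting T cells most of these proteins are scarce, and they appear when the cells are activated and enter the cycle.

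Promoters of these genes are known for E2F binding sites, so their sequences are shown for 3 genes with E2F words and 1 without, all of which are described below. Promoter windows of 300 bases, from 250 before to 50 after the annotated start, came from RefSeq on GRCm38.p6 and were given for 41 of the 51 genes. The E2F words searched, on both strands, were TTTCCCGC, TTTCGCGC, TTTGCCGC and TTTGGCGC. At least 1 of them lay in the window of 16 of those 41 genes (39.0%), against 2.6% of all 27025 genes with a window and 2.3% of all 32851 windows. Of the further replication genes listed below, 11 of 38 (28.9%) held one, and of the mitosis genes 3 of 26 (11.5%). The word TTTGAA, the core of the CHR element of genes expressed in G2 and mitosis, showed another distribution, with 17.1% of the replication and S phase genes, 80.8% of the mitosis genes and 20.2% of all genes. The word CCAAT stood in 61.0%, 84.6% and 41.1% of them. Such matches describe letters in a window and not bound factors. The 200 bases before the start are printed 5′ to 3′ on the strand of the gene, with E2F words in capitals. They lie at chr8:75109309-75109508 (+) for Mcm5, chr1:128359706-128359905 (-) for Mcm6, chrX:93632156-93632355 (-) for Pola1 and chr12:24708054-24708253 (+) for Rrm2.
Mcm5: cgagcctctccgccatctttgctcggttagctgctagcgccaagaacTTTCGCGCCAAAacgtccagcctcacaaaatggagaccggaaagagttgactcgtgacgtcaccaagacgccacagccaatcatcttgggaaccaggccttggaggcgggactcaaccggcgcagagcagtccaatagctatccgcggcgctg
Mcm6: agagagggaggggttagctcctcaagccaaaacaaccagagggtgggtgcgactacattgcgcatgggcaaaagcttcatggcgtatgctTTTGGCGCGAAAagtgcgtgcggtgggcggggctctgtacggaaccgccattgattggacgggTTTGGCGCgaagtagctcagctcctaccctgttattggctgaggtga
Pola1: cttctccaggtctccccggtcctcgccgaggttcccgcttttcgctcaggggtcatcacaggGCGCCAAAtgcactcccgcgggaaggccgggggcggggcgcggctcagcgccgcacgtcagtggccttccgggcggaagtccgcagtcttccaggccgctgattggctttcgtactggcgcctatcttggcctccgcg
Rrm2: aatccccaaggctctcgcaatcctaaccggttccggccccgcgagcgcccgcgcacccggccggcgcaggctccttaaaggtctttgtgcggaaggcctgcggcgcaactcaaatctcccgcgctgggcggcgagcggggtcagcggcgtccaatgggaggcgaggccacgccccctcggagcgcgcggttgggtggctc
Mcm5 held a pair of overlapping words that begin 153 and 149 bases before the start. Mcm6 held such a pair at 110 and 106 bases and a single word 47 bases before the start, Pola1 held 1 word on the opposite strand 138 bases before it, and Rrm2 held none in its window.

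**Figure D1:**
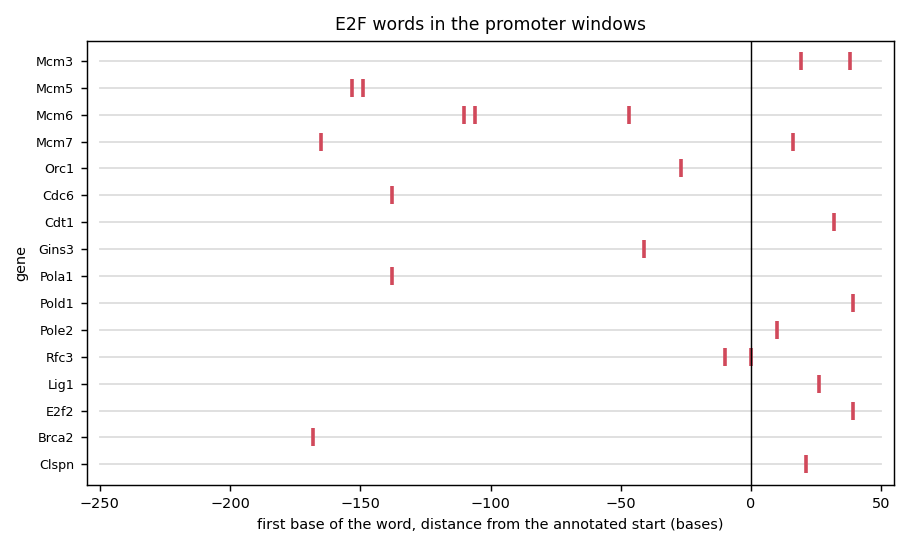
Positions of the E2F words in the promoter windows of the 16 genes that hold one; the horizontal axis gives the distance of the word's first base from the annotated start in bases, and each red tick is 1 word on either strand. Mcm5, Mcm6 and Pola1 hold their words before the start, whereas Mcm3, Cdt1, Lig1 and Clspn hold theirs after it.

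Library totals ran from 24698544 to 53788643 counts in 18 libraries, but were 2537901 to 15234765 in the 3 control TFH libraries and 4848261 to 9622781 in the 3 control TFR libraries. In the control TFH libraries 5, 13 and 5 of the 51 genes had no read, against 0 in each treated TFH library. With every library thinned to 2537901 counts these numbers were 6, 13 and 5 against 0. Transcripts of kidney podocytes stood high in 5 libraries: control Tconv 1 and 2, treated Treg 3, treated TFH 3 and treated TFR 1. The summed level of 8 podocyte markers, in CPM (counts-per-million, TMM-scaled), reached 1224 in control Tconv, 157.7 in treated Treg, 1421 in treated TFH and 552.4 in treated TFR libraries, and was at most 63.8 in any library of the other 4 groups. Markers of the kidney proximal tubule (8 genes) stood high in the same 5 libraries. Their sum reached 498.5 CPM in control Tconv, 62.1 in treated Treg, 562.5 in treated TFH and 223.6 in treated TFR libraries. Foxp3 was at 322 to 598 CPM in Treg and TFR, 29.7 to 67.3 in TFH and 4.31 to 12.8 in Tconv libraries. Cxcr5 was at 98.5 to 284.5 CPM in TFH, 42.6 to 146 in TFR, 14.9 to 46.05 in Treg and 0.824 to 16.3 in Tconv libraries. Other genes separated the sorted subsets less: Ikzf2, a gene of regulatory T cells, was at 342 to 413 CPM in TFH libraries, and Pdcd1, which encodes PD1, was higher in control Treg (201 to 241) than in treated TFH and TFR libraries (126 to 151).

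The summed level of the 51 genes was higher in treated than in control libraries of all 4 subsets, and was highest in TFR cells of treated mice. Levels are in CPM, given as mean ± SD over 3 libraries. The sum was 1722 ± 184 in control and 2120 ± 11.8 in treated Tconv, and 2027 ± 36.4 and 3381 ± 147 in Treg libraries. It was 1857 ± 116 and 2559 ± 181 in TFH, and 2382 ± 138 and 4964 ± 394 in TFR libraries. Treated Tconv libraries lay at 2108 to 2131 and control Tconv libraries at 1615 to 1934, so these groups did not overlap, and the gap was wider in the other subsets. In order of the mean, treated TFR libraries were followed by treated Treg, treated TFH, control TFR, treated Tconv, control Treg, control TFH and control Tconv libraries. The neighbours whose ranges overlapped were treated TFH (2362 to 2717) with control TFR (2246 to 2522), and control TFH (1742 to 1975) with control Tconv. The sum is weighted to the most abundant genes, Pcna and Mcm6 among them. Taken gene by gene, 45 of 51 had their highest group mean in treated TFR libraries, with Pole2 and Rpa1 highest in treated Tconv, E2f2 and Atad2 in treated Treg, Cdt1 in treated TFH and Gins3 in control TFH. The share of all genes with their highest mean in treated TFR libraries was not computed, so this count cannot be set against genes at large. In sorted bulk RNA, more cells in S phase and more of these transcripts per cell cannot be told apart.

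**Figure D2:**
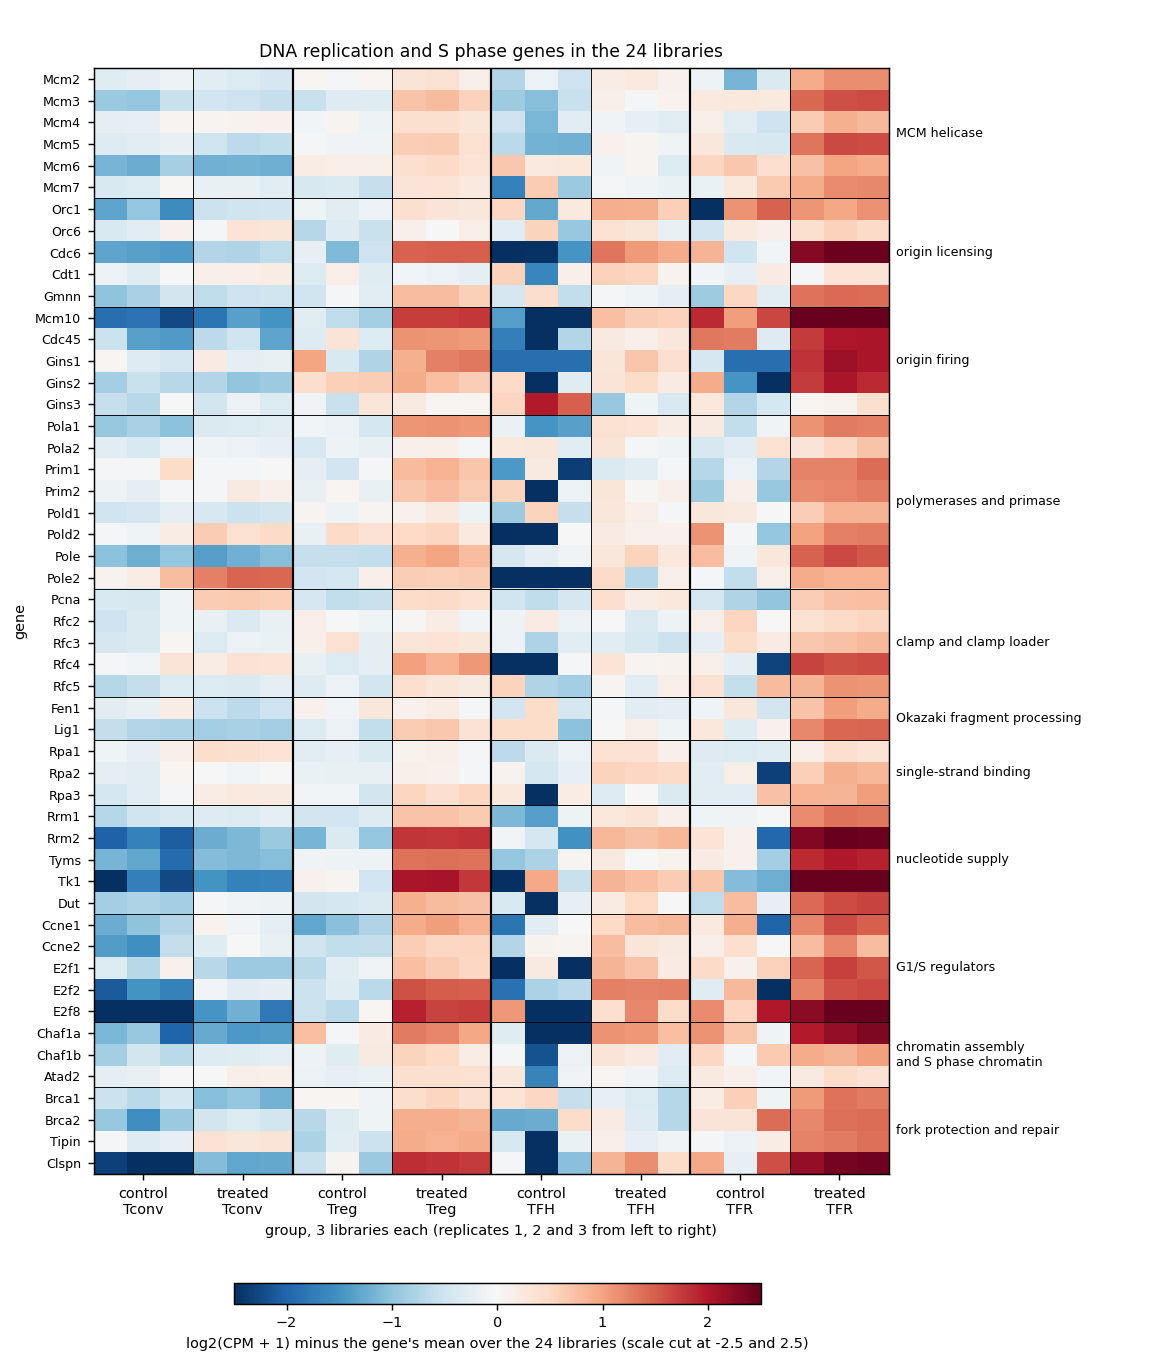
Level of the 51 genes (rows, by role) in the 24 libraries (columns, 3 per group), as log2(CPM + 1) minus the gene's mean over all libraries; red is above and blue below that mean. The 3 treated TFR libraries are red for nearly every gene, the 3 treated Treg libraries come next, and the control TFH libraries hold the darkest blue cells, among them Gins1 and Pole2, which had no read there.

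Treatment raised these genes in Treg, TFH and TFR cells more often than genes at large. Each gene was tested in edgeR with a quasi-likelihood F test in 1 model of all 24 libraries, and a gene is said to have risen or fallen where its Benjamini-Hochberg adjusted p over all genes was below 0.05. In TFR cells 25 of 51 rose and 0 fell, where 15.6% of all genes rose and 6.39% fell. In Treg cells 15 rose and 0 fell, against 5.17% and 3.56% of all genes. In TFH cells 17 rose and 2 fell, against 16.5% and 5.86%. In Tconv cells 5 rose and 0 fell, close to the 6.89% and 3.05% of all genes. The median log2 fold change of the 51 genes was 1.21 in TFR, 0.93 in Treg, 0.70 in TFH and 0.25 in Tconv cells, and that of all genes tested 0.40, 0.09, 0.42 and 0.02. The median of all genes moved with the settings: over the 16 alternatives it ran from 0.12 to 0.78 in TFH and from 0.00 to 0.60 in TFR cells, where that of the 51 genes ran from 0.65 to 0.84 and from 1.14 to 1.35. In TFH cells with no filter on low counts the median of all genes (0.78) lay above that of the 51 (0.68), and without control TFH 3 they were 0.78 and 0.81. In Tconv cells they were 0.14 and 0.15 without the 5 libraries with podocyte transcripts. All 51 fold changes were above 0 in TFR cells, 49 in Treg, 43 in TFH and 39 in Tconv cells. The share of all genes above 0 was not computed, and their median was itself above 0 in TFR (0.40) and TFH cells (0.42). Pcna and E2f2 rose in all 4 subsets. Mcm3, Mcm5, Cdc6, Pola1, Pole, Rpa1, Rrm1, Rrm2 and Clspn rose in 3, 6 genes rose in 2, 15 in 1 and 19 in none. The share of all genes that rose in as many subsets was not computed, so these counts describe the 51 genes only.

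The calls rest on a spread shared by all groups, and the groups differed in it: fitted group by group, the biological coefficient of variation was lowest among treated Tconv (0.075) and highest among control TFH libraries (1.053). When only the 6 libraries compared were fitted, 41 of 51 genes rose and 0 fell in Treg cells, where 20.8% of all genes rose and 20.1% fell. The same fit gave 27 higher and 0 lower in TFR cells, against 14% and 7.08%, and 7 higher and 0 lower in TFH cells, against 9.1% and 2.4%. In Tconv cells it gave 13 higher and 7 lower, against 16.6% and 20.2%, and the 7 that fell were Brca1, E2f1, Fen1, Lig1, Mcm2, Mcm5 and Mcm6. Without the 5 libraries with podocyte transcripts the shared fit counted 22 higher and 0 lower in TFR, 12 and 0 in Treg and 12 and 2 in TFH cells. In Tconv cells it counted 1 higher and 0 lower, where control Tconv 3 was then the sole control. The Tconv count was 1 without treated Tconv 1, control Tconv 1 or control Tconv 2, and 2 without treated Tconv 2 or treated Tconv 3. The Treg count was 7 without control Treg 3. Counts under other settings without a share of all genes beside them, here and below, cannot be told from a change in calls at large.

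**Figure D3:**
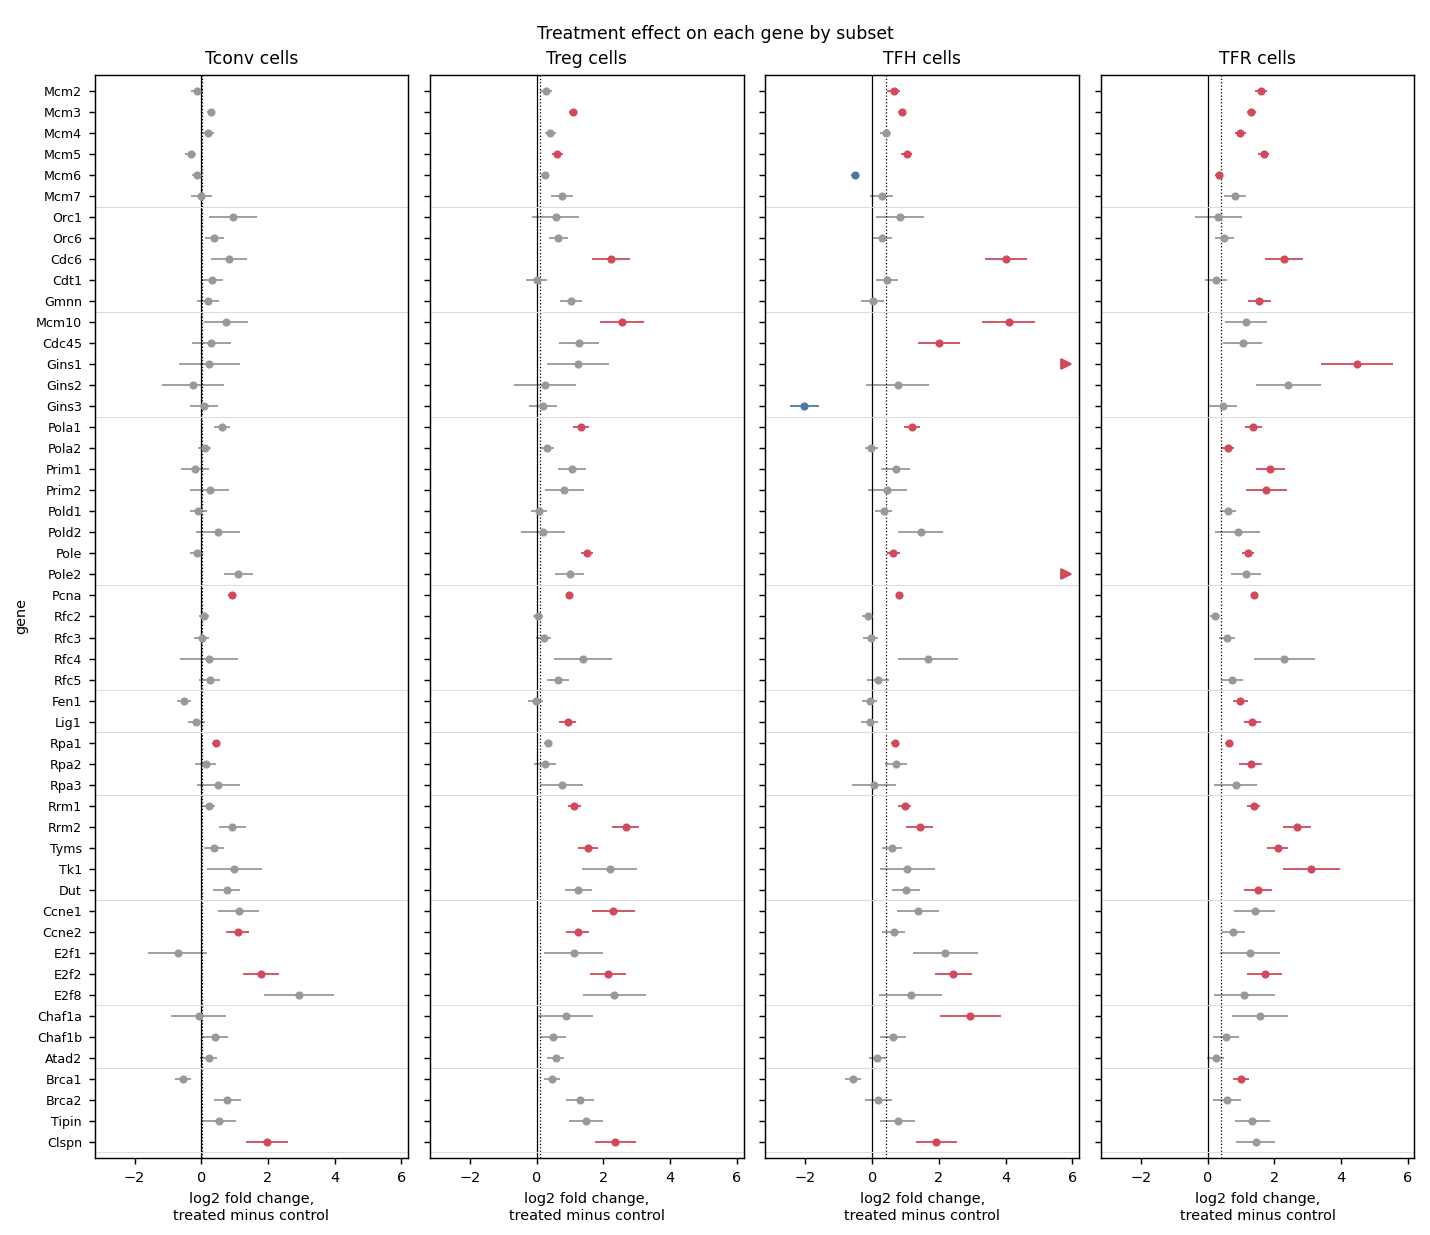
Log2 fold change of each of the 51 genes, treated minus control, in the 4 subsets; points with bars are the estimate and its standard error from the shared fit, red marks genes that rose, blue genes that fell and grey the others, and the dotted line is the median of all genes tested. The 2 red arrowheads in the TFH panel are Gins1 and Pole2, whose fold could not be bounded from above because the control group had no read. In the TFR panel all points lie to the right of 0.

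The MCM genes, which encode the 6 subunits of the replicative helicase, moved most in TFR cells, where Mcm2, Mcm3, Mcm4, Mcm5 and Mcm6 rose and Mcm7 did not pass (adjusted p = 0.076). Mcm3 (ENSMUSG00000041859.10, chromosome 1, 20802968 to 20820312) stood at 125, 128 and 125 CPM in the control TFR libraries and at 286, 324 and 329 in the treated ones. Every treated library lay above every control library, and the log2 fold change was 1.31 ± 0.13 (standard error, edgeR adjusted p = 1.3e-07). In Treg cells Mcm3 was at 71.2, 83.7 and 85.2 CPM in control and 172, 183 and 158 in treated libraries, a log2 fold change of 1.09 ± 0.12 (edgeR adjusted p = 2.3e-06). In TFH libraries it was at 56.1, 49.8 and 71.7 in controls and 116, 103 and 112 after treatment (log2 fold change 0.89 ± 0.13, edgeR adjusted p = 3.3e-05). The Tconv values, 54.9, 53.1 and 71.5 against 75.7, 73.5 and 69.9 CPM, overlapped.

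Mcm5 and Mcm2 changed by amounts that depended on the subset. Mcm5 (ENSMUSG00000005410.6, chromosome 8, 75109569 to 75128439) was at 110.1, 68.8 and 67.6 CPM in control TFR libraries and at 229, 283 and 280.2 in treated ones (log2 fold change 1.68 ± 0.16, edgeR adjusted p = 1.7e-07). It went from 55.8, 39.0 and 38.3 to 97.2, 93.6 and 83.4 CPM in TFH libraries and from 87.4, 84.6 and 84.9 to 138, 139.6 and 117 in Treg libraries, and rose in both. In Tconv libraries it was at 72.0, 73.3 and 78.3 CPM in controls and lower, at 63.7, 56.9 and 58.6, after treatment, without overlap (adjusted p = 0.22 in the shared fit). Mcm2 was at 72.9, 34.7 and 62.0 CPM in control TFR libraries and at 152, 180.2 and 179 in treated ones (log2 fold change 1.59 ± 0.19, edgeR adjusted p = 2.1e-06), and at 47.6, 71.8 and 55.4 against 90.0, 94.8 and 85.3 in TFH libraries, where it rose by 0.64 ± 0.18 (edgeR adjusted p = 0.017). Its Treg values, 82.3, 78.2 and 82.2 against 100.1, 104 and 88.6 CPM, and its Tconv values, 63.8, 67.0 and 72.7 against 65.8, 62.3 and 59.3, did not pass the test.

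Mcm6 went the other way in TFH cells. It was at 377, 279 and 280.4 CPM in control TFH libraries and fell to 222, 247 and 186 in treated ones, a log2 fold change of -0.52 ± 0.12 (edgeR adjusted p = 0.0049) without overlap. In TFR libraries it was at 342, 373 and 314 CPM against 390.4, 468 and 448, and rose by 0.34 ± 0.12 (edgeR adjusted p = 0.049), a call lost under 9 of 16 alternative settings. Treg libraries held 266, 263 and 262 CPM in controls and 310.3, 329 and 299.8 after treatment, and Tconv libraries 105, 99.2 and 132 against 101, 103 and 100.4. The fall in TFH cells was lost in limma voom and in the fit of the 6 libraries compared, with adjusted p up to 0.12. In every group of Treg, TFH and TFR libraries the mean of Mcm6 was above that of both Tconv groups.

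Among the licensing genes Cdc6, the loader ATPase, had the largest changes in Treg, TFH and TFR cells. Cdc6 was at 0, 0.772 and 2.52 CPM in control TFH libraries and at 23.7, 19.6 and 17.7 in treated ones (log2 fold change 4.01 ± 0.64, edgeR adjusted p = 0.00011). In TFR libraries it was at 16.6, 5.99 and 8.34 against 47.0, 52.3 and 52.7 CPM (2.29 ± 0.56, edgeR adjusted p = 0.0054), and in Treg libraries at 7.51, 3.60 and 5.87 against 26.1, 26.8 and 26.8 (2.23 ± 0.56, edgeR adjusted p = 0.013). Tconv libraries held 2.94, 2.82 and 2.66 CPM in controls and 4.94, 4.803 and 5.34 after treatment. Treated and control values of Cdc6 did not overlap in any subset, although the Tconv difference did not pass (adjusted p = 0.39).

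Cdt1, the partner of Cdc6 in loading MCM, did not pass in any subset. It was at 34.2, 30.6 and 41.3 CPM in control and 35.1, 45.5 and 45.1 in treated TFR libraries, and at 28.0, 39.9 and 28.9 against 33.9, 32.1 and 30.3 in Treg libraries. The TFH values were 53.9, 10.8 and 39.3 against 53.4, 52.2 and 37.9 CPM, and the Tconv values 31.9, 28.7 and 35.7 against 39.6, 39.9 and 41.0. Its log2 fold changes lay between -0.01 and 0.44. Gmnn, whose product inhibits Cdt1, rose in TFR cells, from 7.75, 22.2 and 12.3 to 40.4, 41.8 and 41.6 CPM (1.55 ± 0.34, edgeR adjusted p = 0.0024). It was at 10.4, 14.8 and 12.5 against 26.4, 26.7 and 23.4 CPM in Treg libraries, without overlap (adjusted p = 0.066), at 11.1, 20.9 and 9.53 against 14.8, 13.9 and 12.7 in TFH, and at 7.07, 8.13 and 10.8 against 9.45, 10.2 and 10.3 in Tconv libraries. Orc1 and Orc6, subunits of the origin recognition complex, passed in no subset. Orc1 shares 10.8% and Orc6 6.9% of its exon bases with a gene on the other strand, and the strand setting of the counting is not given in the sources used here.

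Of the genes that fire the licensed origins, Mcm10, Cdc45 and Gins1 rose and Gins3 fell in TFH cells, Mcm10 rose in Treg and Gins1 in TFR cells. In the edgeR fit of the 6 libraries compared, Gins1 alone of these was called in TFH cells, while Mcm10 and Cdc45 were called in Treg and Mcm10 in TFR cells. Cdc45, part of the active helicase, was at 2.26, 0 and 5.45 CPM in control TFH libraries and at 11.4, 10.7 and 11.99 in treated ones (1.99 ± 0.62, edgeR adjusted p = 0.026), a call lost under 7 of 16 alternatives. In Treg libraries it was at 7.62, 12.3 and 7.44 against 22.4, 21.9 and 21.4 CPM and in TFR libraries at 25.6, 25.3 and 7.58 against 35.2, 42.5 and 43.3, without overlap and without passing the test. Its Tconv values, 6.44, 3.17 and 3.04 against 5.77, 6.55 and 3.29 CPM, overlapped. Mcm10, which helps to activate the helicase, was at 5.72, 4.21 and 3.39 CPM in control and 25.7, 25.9 and 26.3 in treated Treg libraries (2.55 ± 0.66, edgeR adjusted p = 0.016).

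The GINS subunits did not move together. Gins1 had no read in the control TFH libraries and stood at 3.57, 4.94 and 3.95 CPM in the treated ones, at least 32.5-fold higher against a floor of 3 reads over the control group. It rose in TFR cells as well, from 1.74, 0 and 0 to 11.99, 15.4 and 14.2 CPM (edgeR adjusted p = 0.0053). Gins3 was at 14.1, 40.2 and 28.4 CPM in control TFH libraries, the highest of the 8 groups, and fell to 4.38, 8.63 and 7.002 in treated ones (-2.04 ± 0.44, edgeR adjusted p = 0.0021). Its values were 11.5, 5.23 and 6.63 against 9.75, 9.999 and 12.6 CPM in TFR, 8.80, 6.06 and 11.9 against 11.1, 9.77 and 9.80 in Treg and 5.96, 5.46 and 9.51 against 6.60, 8.39 and 7.21 in Tconv libraries, with overlap in each. Gins3 overlaps no other gene in the annotation, whereas Gins2 shares 67.3% of its exon bases with Gse1 on the other strand, so that its counts are uncertain.

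Of the 8 polymerase and primase genes 5 rose in TFR cells (Pola1, Pola2, Prim1, Prim2 and Pole), 2 in Treg cells (Pola1 and Pole), 3 in TFH cells (Pola1, Pole and Pole2) and 0 in Tconv cells. Of these calls, that of Pola2 in TFR cells was lost under 10, that of Prim2 in TFR cells under 8 and that of Pole in TFH cells under 8 of 16 alternatives. Pole, the catalytic subunit of the leading-strand polymerase epsilon, was at 21.4, 21.4 and 20.8 CPM in control Treg and 60.9, 65.4 and 55.6 in treated Treg libraries (1.51 ± 0.19, edgeR adjusted p = 6.4e-06). It went from 56.1, 30.3 and 39.6 to 91.5, 103 and 96.7 CPM in TFR and from 23.8, 27.4 and 30.3 to 39.4, 48.1 and 39.3 in TFH libraries, and was at 15.5, 13.2 and 15.97 against 11.9, 13.6 and 14.9 in Tconv libraries. Pole2, the accessory subunit, had no read in control TFH libraries and was at 8.49, 3.17 and 6.57 CPM in treated ones. This was 47.6-fold above the same floor, which covers counting error and not the spread between control libraries. In Tconv libraries Pole2 was at 6.24, 6.78 and 10.7 against 15.5, 17.9 and 17.6 CPM, the highest group, without passing the test. The Treg values of Pole2 were 3.92, 4.03 and 6.45 against 9.48, 9.37 and 9.65 CPM, and its TFR values 5.71, 3.48 and 6.63 against 12.03, 11.6 and 11.6. In Tconv cells Pole2 was higher in every treated library, and Pole was not. Pola1, the catalytic subunit of the polymerase that starts each new strand, was at 45.8, 43.1 and 35.1 CPM in control and 104, 105 and 103 in treated Treg libraries (1.33 ± 0.24, edgeR adjusted p = 0.00076).

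Pcna, which encodes the sliding clamp, had the smallest p of the 51 genes in Tconv, Treg and TFR cells. Pcna (ENSMUSG00000027342.14, chromosome 2, 132249162 to 132253314) was at 202, 199 and 243 CPM in control and 409, 412 and 400.2 in treated Tconv libraries (0.92 ± 0.11, edgeR adjusted p = 3.8e-06). In Treg libraries it was at 196, 171 and 179 against 363, 369 and 345 CPM (0.98 ± 0.11, edgeR adjusted p = 2.3e-06). The TFH values were 185, 170.0 and 197 against 354, 301 and 317 CPM (0.81 ± 0.11, edgeR adjusted p = 2.1e-05), and the TFR values 196, 157 and 132 against 406, 440.1 and 441 (1.41 ± 0.11, edgeR adjusted p = 1e-08). Control and treated groups were apart in every subset, and the rise was called in each subset under all 16 alternative settings. The clamp loader genes Rfc2, Rfc3, Rfc4 and Rfc5 passed in no subset. Their log2 fold changes in TFR cells ran from 0.23 for Rfc2 to 2.30 for Rfc4, whose control TFR libraries ranged from 0.758 to 8.71 CPM.

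**Figure D4:**
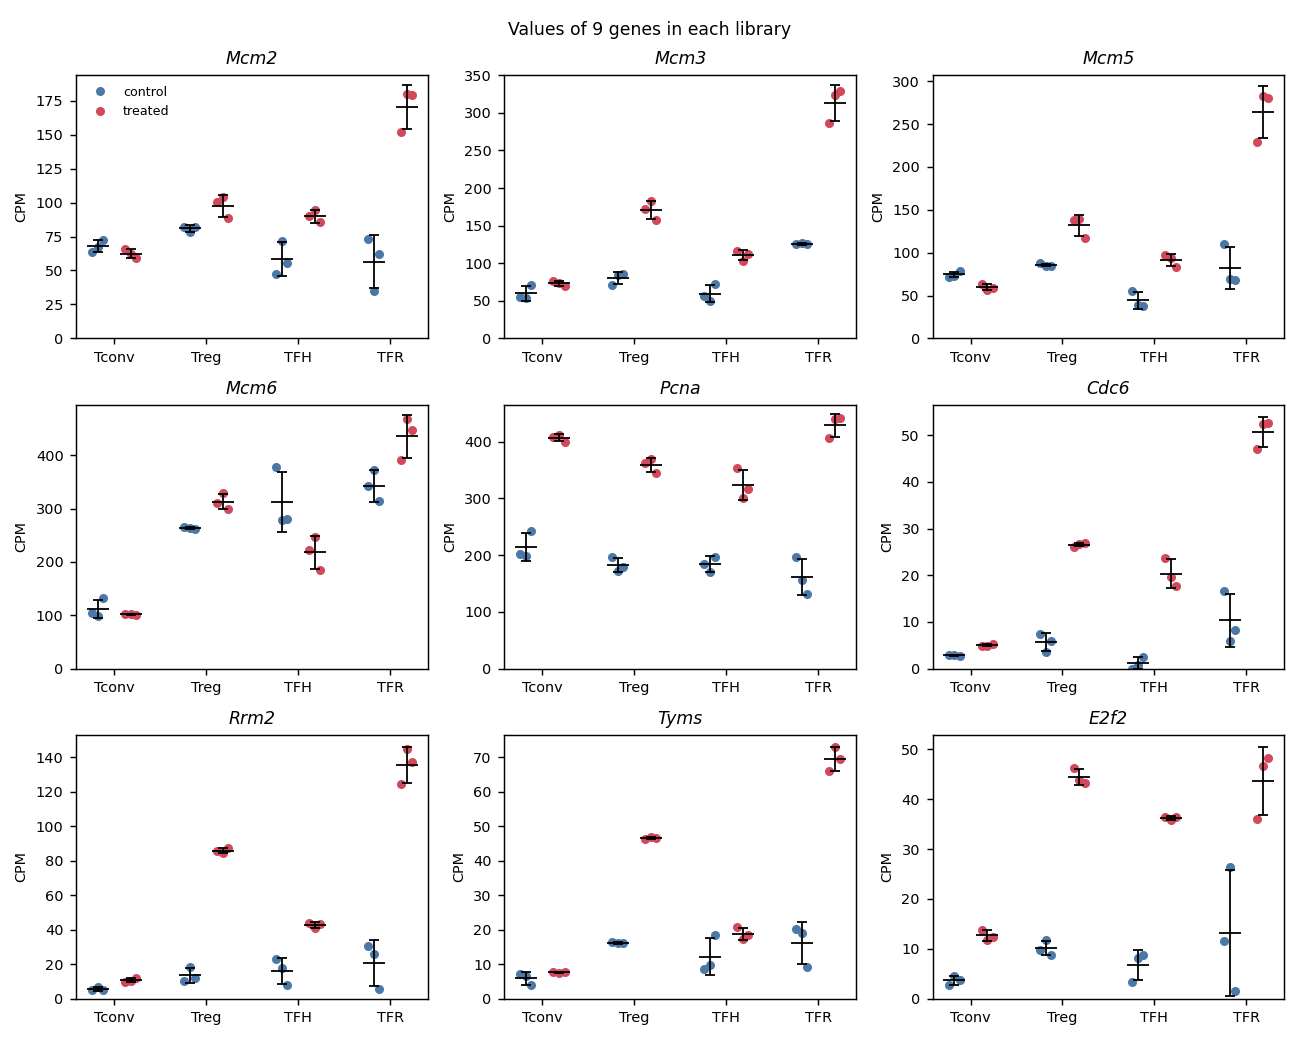
CPM of 9 genes in each of the 24 libraries; blue points are control and red points treated libraries, and black bars give the mean ± SD of the 3 libraries. Pcna stands higher in the treated libraries of all 4 subsets, Mcm3, Cdc6, Rrm2 and Tyms are highest in treated TFR libraries, and Mcm6 is lower in treated than in control TFH libraries.

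The ligase and the flap nuclease that join Okazaki fragments both rose in TFR cells. Lig1 was at 76.6, 51.3 and 68.6 CPM in control and 147, 173 and 177 in treated TFR libraries (1.34 ± 0.25, edgeR adjusted p = 0.00059), and at 50.03, 57.4 and 41.0 against 98.9, 102 and 81.7 in Treg libraries (0.93 ± 0.25, edgeR adjusted p = 0.021). Its TFH values, 87.6, 87.7 and 30.7 against 64.3, 70.2 and 59.1 CPM, overlapped, with control TFH 3 far below the others. Tconv libraries held 41.7, 37.8 and 36.7 against 34.4, 35.9 and 34.4 CPM, slightly lower after treatment. Fen1 rose in TFR cells by 0.98 ± 0.22 (edgeR adjusted p = 0.0031), but shares 78.8% of its exon bases with genes on the other strand.

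Of the single-strand binding proteins, Rpa1, the large subunit, rose in 3 subsets. It was at 151, 140.2 and 179 CPM in control and 220.4, 215 and 206 in treated Tconv libraries (0.45 ± 0.11, edgeR adjusted p = 0.013), at 102, 127 and 147 against 212, 209.5 and 179 in TFH (0.67 ± 0.12, edgeR adjusted p = 0.00029) and at 130.2, 128 and 131 against 182, 218 and 206 in TFR libraries (0.64 ± 0.12, edgeR adjusted p = 0.00036). The Treg values, 134, 140.1 and 126 against 174, 176 and 158 CPM, did not overlap (adjusted p = 0.067). The Tconv call was lost under 6 of 16 alternatives, among them both fits without podocyte libraries. Rpa2 rose in TFR cells by 1.29 ± 0.34 (edgeR adjusted p = 0.0083), and Rpa3 passed in none.

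Nucleotide supply was the role with the largest median effect in TFR cells (log2 fold change 2.10), where all 5 genes rose, as did 3 in Treg, 2 in TFH and 0 in Tconv cells. Rrm2 (ENSMUSG00000020649.11, chromosome 12, 24708241 to 24714146), the S phase subunit of ribonucleotide reductase, was at 30.9, 26.0 and 5.49 CPM in control and 124, 145 and 137 in treated TFR libraries (2.69 ± 0.41, edgeR adjusted p = 6.4e-05). In Treg libraries it was at 10.2, 18.5 and 11.9 against 86.0, 84.6 and 87.2 CPM (2.66 ± 0.41, edgeR adjusted p = 0.00011), and in TFH libraries at 22.9, 17.8 and 7.83 against 43.8, 40.9 and 43.6 (1.43 ± 0.41, edgeR adjusted p = 0.015). Tconv libraries held 5.20, 6.85 and 5.01 against 9.72, 10.6 and 12.3 CPM, apart but not called. Rrm1, the constant large subunit, had smaller changes, of 1.39 in TFR, 1.12 in Treg and 0.98 in TFH cells on the log2 scale.

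Tyms and Tk1 make thymidine nucleotides, and both rose in TFR cells. Tyms (thymidylate synthase) was at 20.2, 18.9 and 9.28 CPM in control and 66.0, 72.9 and 69.6 in treated TFR libraries (2.10 ± 0.30, edgeR adjusted p = 3.3e-05), and at 16.4, 16.1 and 16.04 against 46.3, 46.9 and 46.5 in Treg libraries (1.53 ± 0.30, edgeR adjusted p = 0.0014). Its TFH values overlapped, at 8.52, 9.66 and 18.5 against 20.7, 17.2 and 18.6 CPM, and Tconv libraries held 7.27, 6.53 and 3.90 against 7.76, 7.53 and 7.85. Tk1 (thymidine kinase) was at 12.9, 3.05 and 2.65 CPM in control and 50.95, 56.0 and 54.6 in treated TFR libraries (3.10 ± 0.86, edgeR adjusted p = 0.012). It was at 8.14, 7.99 and 5.17 against 34.3, 34.8 and 28.1 CPM in Treg libraries, apart but not called (adjusted p = 0.12). The TFH values of Tk1 were 0, 15.4 and 4.83 against 14.4, 13.3 and 12.2 CPM, and its Tconv values 0.278, 1.60 and 0.792 against 2.04, 1.63 and 1.67.

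Regulators of the G1/S transition had the largest median effect in Treg cells (2.14), where Ccne1, Ccne2 and E2f2 rose. E2f2, an activating E2F factor, was at 9.82, 11.7 and 8.85 CPM in control and 46.3, 43.9 and 43.3 in treated Treg libraries (2.14 ± 0.53, edgeR adjusted p = 0.012). In TFH libraries it was at 3.30, 8.11 and 8.78 against 36.5, 35.9 and 36.5 CPM (2.43 ± 0.55, edgeR adjusted p = 0.0033), in TFR libraries at 11.6, 26.5 and 1.52 against 35.9, 46.7 and 48.3 (1.71 ± 0.53, edgeR adjusted p = 0.024) and in Tconv libraries at 2.66, 4.53 and 3.83 against 13.9, 11.8 and 12.4 (1.78 ± 0.53, edgeR adjusted p = 0.034). The Tconv call was lost under 9 and the TFR call under 6 of 16 alternatives, while treated and control values were apart in each subset.

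E2f1, another activating E2F factor, passed in none. Its values were 8.52, 6.32 and 9.09 against 17.7, 21.1 and 18.9 CPM in TFR, 3.26, 4.65 and 5.42 against 10.4, 9.52 and 8.69 in Treg and 0.174, 6.95 and 0 against 11.2, 10.1 and 6.86 in TFH libraries. In Tconv libraries E2f1 was at 4.33, 3.21 and 6.34 CPM in controls and at 3.20, 2.64 and 2.64 after treatment. E2f8, a repressor of E2F targets, passed in none in the shared fit, at 4.91, 4.36 and 7.90 against 32.0, 26.4 and 27.5 CPM in Treg libraries and 18.5, 11.4 and 33.3 against 39.7, 46.9 and 48.8 in TFR libraries. It was at 17.2, 0 and 0.476 against 10.4, 18.7 and 10.8 CPM in TFH and at 0.516, 0.321 and 0 against 2.09, 2.70 and 1.48 in Tconv libraries.

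Both cyclin E genes rose in Treg cells. Ccne1 was at 2.16, 2.796 and 3.64 CPM in control and 13.98, 15.1 and 13.2 in treated Treg libraries (2.30 ± 0.64, edgeR adjusted p = 0.024), a call lost under 8 of 16 alternatives. It was at 8.33, 13.6 and 0.947 against 17.1, 23.3 and 20.97 in TFR, at 1.22, 5.41 and 6.87 against 10.02, 12.4 and 12.9 in TFH and at 2.30, 2.89 and 3.71 against 7.28, 6.46 and 5.71 in Tconv libraries, apart in each. Ccne2 was at 7.92, 7.26 and 7.32 against 18.4, 16.97 and 17.2 CPM in Treg (1.22 ± 0.34, edgeR adjusted p = 0.027) and 3.81, 3.35 and 7.38 against 9.24, 11.6 and 10.2 in Tconv libraries (1.09 ± 0.34, edgeR adjusted p = 0.048). TFR libraries held 13.2, 15.9 and 11.8 against 20.5, 28.3 and 20.7 CPM, and TFH libraries 6.60, 12.4 and 12.2 against 20.5, 14.5 and 13.7. The Ccne2 calls were lost under 11 of 16 alternatives in Tconv and 9 in Treg cells, and 17.4% of its exon bases are shared with Ints8 on the other strand.

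Of the genes for chromatin assembly and S phase chromatin, Chaf1a, a subunit of the histone chaperone CAF-1, rose in TFH cells by 2.95 ± 0.91 (edgeR adjusted p = 0.024). It shares 52.5% of its exon bases with Ubxn6 on the other strand. Chaf1b and Atad2 passed in none. Among fork protection and repair genes, Brca1, a recombination repair factor, rose in TFR cells, from 35.8, 47.9 and 29.2 to 66.4, 82.2 and 78.9 CPM (1.01 ± 0.23, edgeR adjusted p = 0.0034). It was at 32.7, 32.5 and 29.6 CPM in control and 43.1, 45.8 and 41.5 in treated Treg libraries, and at 21.2, 19.3 and 22.8 against 14.5, 15.6 and 13.3 in Tconv libraries, and passed in neither. The TFH values were 40.1, 45.6 and 20.6 against 27.1, 24.7 and 18.9 CPM, with overlap. Clspn, the claspin adaptor of the replication checkpoint, rose in 3 subsets, by 2.35 ± 0.61 in Treg (edgeR adjusted p = 0.016), 1.93 ± 0.61 in TFH (edgeR adjusted p = 0.029) and 1.97 ± 0.62 in Tconv cells (edgeR adjusted p = 0.048). Its control TFR libraries spread from 8.93 to 33.9 CPM, and the difference to 51.9, 59.3 and 61.4 in treated ones did not pass (adjusted p = 0.087). The Clspn call was lost under 12 of 16 alternatives in Tconv, 6 in TFH and 2 in Treg cells.

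Markers of other cell types moved with treatment as well. The summed level of 6 CD8 and NK cell markers was 3.65 to 5.02 CPM in control and 78.2 to 89.6 in treated TFH libraries, and 0.484 to 9.66 against 64.3 to 71.4 in TFR libraries. Of these 6, Nkg7 reached 71.6 to 84.7 CPM in treated TFH and 55.8 to 59.2 in treated TFR libraries, and so made up most of the sum, while Cd8a had no read in any TFH or TFR library. In TFH libraries Ncr1 had no read, and Klrd1 was at 1.56 to 5.02 CPM in control and 0.432 to 1.67 in treated ones. Cd8b1 and Klrb1c were higher in treated TFH libraries but reached only 3.95 and 1.99 CPM. B cell markers (10 genes) summed to 9.19 to 12.3 CPM in control and 47.5 to 47.8 in treated Treg libraries, and to 4.55 to 29.1 against 58.9 to 67.8 in TFR libraries. They summed to 69.9 to 111 against 69.4 to 103.5 CPM in TFH and to 6.37 to 44.4 against 9.55 to 10.3 in Tconv libraries. In treated Treg and TFR libraries Cd22 alone made up 33.2 to 43.9 CPM of this. Plasma cell markers (6 genes) summed to 488 to 562 CPM in control and 629 to 711 in treated TFR libraries, to 467 to 509 against 384.5 to 405 in Treg libraries, and overlapped in TFH and Tconv libraries. Among them Jchain was at 13.9 to 26.3 CPM in control and 147 to 201 in treated TFH libraries. In TFR libraries Jchain was at 2.81 to 7.01 against 103.5 to 114 CPM. Mzb1 had no read in control TFH libraries and 3.42 to 4.75 CPM in treated ones. Prdm1 was also higher in treated TFH libraries, at 54.3 to 63.4 against 7.65 to 19.2 CPM in controls. Irf4 and Xbp1 went the other way in TFH libraries, and Sdc1 overlapped. Irf4 was at 231 to 388 CPM in control and 170 to 199 in treated ones, and Xbp1 at 124 to 136 against 97.5 to 106. The summed level of 10 markers of T cell identity was higher in treated libraries of every subset, most in Tconv. There it was 2371 to 2977 CPM in control and 5248 to 5533 in treated libraries. Single markers did not all follow the sum: Cd3e was at 322 to 345 CPM in treated against 397 to 426 in control Treg libraries. Trbc1 was at 99.6 to 110 CPM in treated against 113 to 135 in control TFR libraries. Treated and control ranges of the sum were 3672 to 4089 against 3068 to 3128 CPM in Treg, 3872 to 4390 against 2910 to 3075 in TFH and 3545 to 4201 against 2601 to 2928 in TFR libraries. The part of these markers in the changes of the replication genes was not tested.

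Whether the treatment effect itself differed was tested for 4 pairs of subsets. The share of the 51 genes with a larger effect was above that of all genes for TFR against TFH and for Treg against Tconv cells. It was near that of all genes for TFH against Tconv and for TFR against Treg cells. The effect in TFR cells exceeded that in TFH cells for 8 genes and was below it for 1, where 3.3% of all genes had a larger and 3.75% a smaller effect. The 8 were Mcm2 (0.95 ± 0.26 on the log2 scale), Mcm6 (0.86 ± 0.17), Pcna (0.59 ± 0.16), Fen1, Lig1 (1.41 ± 0.36), Tyms (1.497 ± 0.42), Gins3 and Brca1 (1.58 ± 0.33), with edgeR adjusted p from 0.0051 to 0.047, and the 1 was Pole2, which had no read in control TFH libraries. The effect in TFR cells exceeded that in Treg cells for Mcm2 (1.32 ± 0.26, edgeR adjusted p = 0.0031) and Mcm5 (1.06 ± 0.23, edgeR adjusted p = 0.0062) and was below it for 0, against 5.24% and 2.26% of all genes. The effect in Treg cells exceeded that in Tconv cells for Mcm3 (0.81 ± 0.17), Mcm5 (0.94 ± 0.23) and Pole (1.66 ± 0.26) and was below it for 0, against 0.883% and 1.8%. In TFH against Tconv cells the effect was larger for 8 genes and smaller for Gins3, against 14.4% and 5.22%. For the first and the last pair, the count of 9 dropped to 2 without the podocyte libraries, and for the first pair it was 0 in limma voom and in the edgeR fit of the libraries compared, with 14 and 13 genes at an unadjusted p below 0.05, and 14 in DESeq2. Without single libraries the count of 9 for TFR against TFH ran from 4 to 14, being 5, 5, 5 and 4 without treated TFH 2, treated TFH 3, treated TFR 2 or treated TFR 3 and 14 without control TFH 1 or control TFH 3. That of 9 for TFH against Tconv was 4 without treated Tconv 2, 5 without treated Tconv 3, control Tconv 1 or control Tconv 2, and 14 without control TFH 2. The count of 2 for TFR against Treg was 6 without control TFR 1 and 4 without control TFR 2, and that of 3 for Treg against Tconv was 1 without control Treg 1. The 2 effects of a pair share no library, but each of the 4 effects enters 2 pairs.

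In control mice between 3 and 16 of these genes differed in each of 4 comparisons of subsets. In Treg against Tconv cells 6 were higher and 0 lower, where 5.9% of all genes were higher and 3.4% lower. The 6 were Mcm3, Mcm6 (1.23 ± 0.12, edgeR adjusted p = 2.8e-07), Tyms (1.45 ± 0.30, edgeR adjusted p = 0.002), Tk1, E2f8 and Clspn. This count of 6 was 13 in DESeq2, 26 in limma voom and 17 in the edgeR fit of the 6 libraries compared, and 3 without the podocyte libraries. In TFR against Treg cells Mcm3, Mcm10 and Pole were higher and 0 lower, against 2.28% and 7.46%. Without control TFR 1 this comparison gave 3 higher and 4 lower, and without control TFR 3 it gave 6 higher. In TFR against TFH cells 12 were higher and Gins3 lower, against 7.82% and 8%, and this count of 13 was 1 in limma voom and 0 in the edgeR fit of the 6 libraries compared, where 6 of the 50 genes that passed its filter had an unadjusted p below 0.05. In TFH against Tconv cells 11 were higher and 5 lower (Mcm4, Mcm5, Gins1, Pole2 and Rpa1), against 9.89% and 15.1%. Without the 5 podocyte libraries, which leave control Tconv 3 alone on that side, it was 2 and 4, and the total of 16 was 5 in limma voom and 3 in the edgeR fit of the 6 libraries compared. These comparisons share control groups with each other and with the treatment comparisons.

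In treated mice Treg cells were above Tconv cells in 21 genes and below in 0, where 6.37% of all genes were higher and 5.54% lower. The 5 with the smallest p were Mcm6 (1.62 ± 0.13, edgeR adjusted p = 4.3e-09), Pole (2.17 ± 0.19, edgeR adjusted p = 2.7e-08), Mcm3 (1.23 ± 0.12, edgeR adjusted p = 2.4e-07), Tyms (2.59 ± 0.31, edgeR adjusted p = 2.1e-06) and Rrm2 (2.98 ± 0.41, edgeR adjusted p = 1.7e-05). TFR cells were above TFH cells in 23 genes and below in 0, against 4.61% and 4.96%, with Mcm3 (1.502 ± 0.13, edgeR adjusted p = 7e-08), Mcm5 (1.53 ± 0.16, edgeR adjusted p = 1.4e-06) and Brca1 (1.69 ± 0.24, edgeR adjusted p = 4.1e-05) among them. Without the 5 podocyte libraries this count was 11, and without treated TFH 2 it was 15. TFH cells were above Tconv cells in 15 genes and below in Pcna (-0.33 ± 0.11, edgeR adjusted p = 0.042) and Pole2 (-1.48 ± 0.44, edgeR adjusted p = 0.024), against 10.3% and 7.77%. This total of 17 fell to 6, 8 or 8 without 1 of the treated Tconv libraries, to 10 without treated TFH 2 and to 11 without the 5 podocyte libraries.

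TFR cells were above Treg cells of treated mice in 7 genes (Mcm2, Mcm3, Mcm5, Mcm6, Pole, Fen1 and Brca1) and below in 0, against 1.78% and 2.83%. That count was 2 or 3 without any of the treated Treg libraries, treated TFR 2 or treated TFR 3, and 2 without the 5 podocyte libraries. Fitted on the 6 libraries compared it was 45 higher and 0 lower, against 19.4% and 21.8% of all genes. The same kind of fit gave 44 higher and 4 lower for Treg against Tconv (30.5% and 29.9% of all genes), 41 and 0 for TFR against TFH (14% and 14.3%) and 28 and 6 for TFH against Tconv (25.4% and 24.4%). The 4 lower in Treg than in Tconv cells were Cdt1, Pcna, Pole2 and Rpa1.

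Levels per length of exon show how unequal these transcripts were. In treated TFR libraries Pcna was at 179 CPM per kilobase of exon, followed by Mcm6 at 93.3, Mcm3 at 83.5, Mcm4 at 79.2 and Mcm5 at 66.1. The lowest were Brca2 at 3.20, Gins3 at 3.98 and Pole2 at 4.07. Within the helicase, Mcm2 stood at 24.5 CPM per kilobase in treated TFR libraries. In control Tconv libraries Mcm2 was at 9.75, Mcm4 at 42.1 and Mcm3 at 15.9. The exon length was 6956 bases for Mcm2, 3752 for Mcm3 and 3589 for Mcm4. In CPM, Mcm2 was above Mcm3 in control Tconv libraries (67.8 against 59.8) and below it in treated TFR libraries (170 against 313). Rrm2 was at 2.05 and Rrm1 at 6.19 CPM per kilobase in control Tconv libraries, and at 48.9 and 22.1 in treated TFR libraries. These values rest on exon lengths of 2771 bases for Rrm2 and 11012 for Rrm1. In CPM, Rrm1 was above Rrm2 in both groups, at 68.1 against 5.69 in control Tconv and 243 against 136 in treated TFR libraries.

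Replication genes outside the 51 moved in part with them, but in TFH cells their median lay below the 0.42 of all genes. For the counts that follow, 6.89%, 5.17%, 16.5% and 15.6% of all genes rose in Tconv, Treg, TFH and TFR cells. In the same order 3.05%, 3.56%, 5.86% and 6.39% of all genes fell. Of 45 other replication genes 3 rose and 0 fell in Tconv, 8 and 0 in Treg, 11 and 3 in TFH and 11 and 1 in TFR cells, with medians of 0.31, 0.48, 0.08 and 0.54. Cad, which starts pyrimidine synthesis, rose in all 4 subsets, by 1.34 ± 0.15 in TFR cells (136 ± 15.03 against 53.7 ± 8.31 CPM). Uhrf1 and Dnmt1, which copy DNA methylation at the fork, rose in Treg, TFH and TFR cells. Uhrf1 was at 86.0 ± 5.38 against 21.9 ± 0.576 CPM in Treg and at 154 ± 12.8 against 45.3 ± 6.52 in TFR libraries. Of 25 other G1/S control genes 6 rose and 0 fell in Tconv, 6 and 0 in Treg, 5 and 2 in TFH and 9 and 2 in TFR cells, with medians of 0.21, 0.54, 0.51 and 0.91. Ccnd2 (cyclin D2) was at 351 ± 0.526 against 173 ± 18.7 CPM in Tconv libraries (1.02 ± 0.13, edgeR adjusted p = 8.8e-06) and rose in Treg and TFR cells too. Rbl2 (p130), a repressor of E2F targets in resting cells, rose in Tconv and Treg cells and fell in TFR cells, from 579 ± 28.8 to 384 ± 22.8 CPM (-0.59 ± 0.09, edgeR adjusted p = 4.3e-05). Of 23 checkpoint and fork repair genes 1 rose in Tconv, 3 in Treg, 4 in TFH and 5 in TFR cells and 0 fell, with medians of -0.05, 0.74, 0.29 and 0.58. Atr, the kinase that answers stalled forks, rose in Tconv and Treg cells, and Brip1, a helicase of fork repair, in Treg and TFR cells.

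Mitosis genes, which act after S phase, had a higher median log2 fold change than the replication genes in all 4 subsets. Of 30 such genes 4 rose and 1 fell in Tconv, 22 and 0 in Treg, 17 and 1 in TFH and 15 and 0 in TFR cells, with medians of 0.93, 2.41, 1.68 and 1.47. In the same order 6.89%, 5.17%, 16.5% and 15.6% of all genes rose and 3.05%, 3.56%, 5.86% and 6.39% fell. The medians of the 51 replication genes were 0.25, 0.93, 0.70 and 1.21. The lists thus lay closest in TFR cells, although the difference between lists was not tested. Mki67, the Ki-67 antigen of cycling cells, was at 63.3 ± 4.51 against 9.86 ± 6.24 CPM in Tconv and at 1115 ± 72.4 against 393 ± 117 in TFR libraries. Top2a, the topoisomerase that untangles copied chromosomes, was at 46.5 ± 2.77 against 15.2 ± 0.331 CPM in Tconv libraries and at 491 ± 39.7 against 178 ± 8.49 in TFR libraries. Kif23, a motor of cell division, was the mitosis gene that fell in Tconv cells, from 204 ± 24.4 to 81.1 ± 2.49 CPM (-1.33 ± 0.14, edgeR adjusted p = 5.5e-07).

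**Figure D5:**
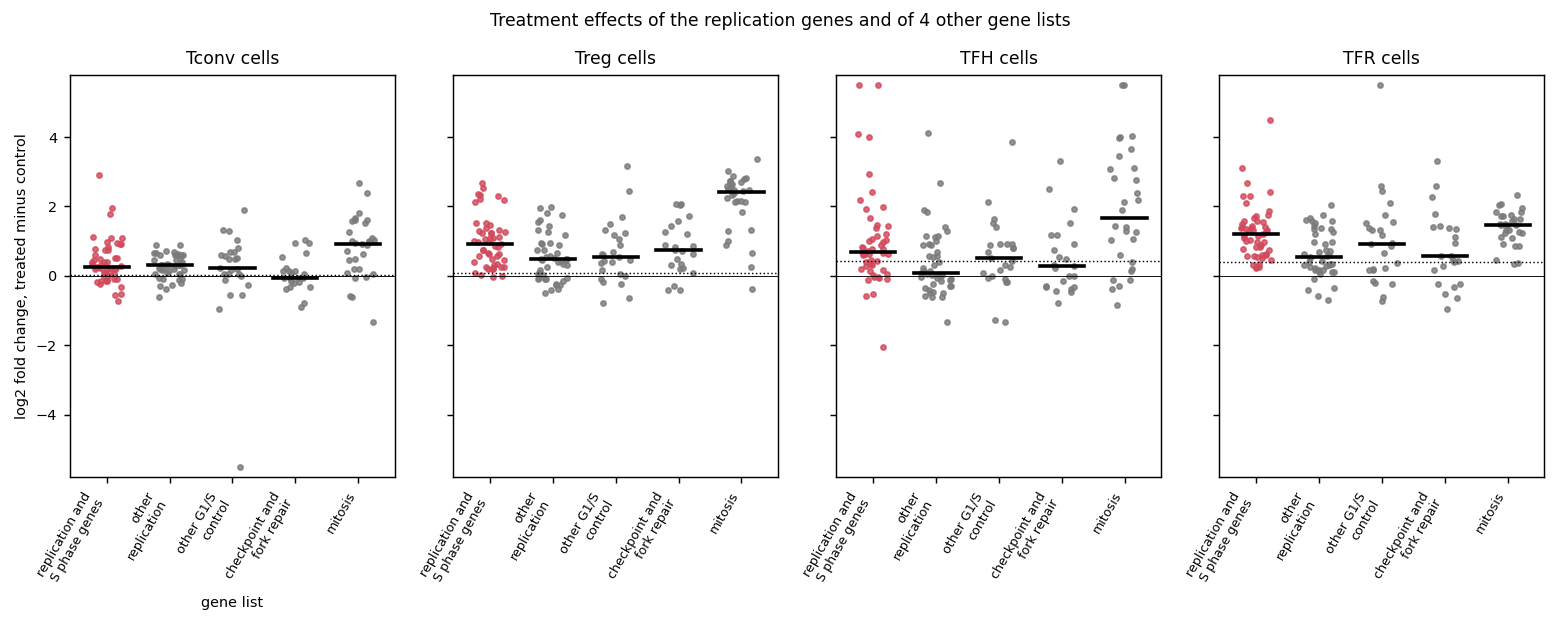
Log2 fold change, treated minus control, of the 51 replication and S phase genes (red) and of 4 other gene lists (grey) in each subset; each point is a gene, the thick bar is the list's median, the dotted line is the median of all genes tested, and values beyond 5.5 in either direction are drawn at 5.5. The median of the mitosis genes lies above that of the replication genes in every subset, by the least in TFR cells.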

How the data were processed

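RNA of 24 libraries was purified with a Qiagen RNeasy kit with DNase and made into libraries with the Lexogen CORALL total RNA kit after RiboCop rRNA depletion, per the labels' protocols. The authors deposited raw read counts per gene for each library. STAR, featureCounts and mm10 are named in the submitters' processing notes; the sources used here give no version, strand setting or annotation release. Counts were filtered with filterByExpr, scaled with TMM and tested with the quasi-likelihood F test of edgeR 4.0.16 in R 4.3.3, with 8 group means over all 24 libraries and Benjamini-Hochberg adjustment over 18789 genes. The standard error of a log2 fold change is its size divided by the square root of F. CPM are counts divided by the TMM-scaled library total. Alternatives were DESeq2 1.42.0, limma 3.58.1 voom, other factors, filters and subsets of libraries; leaving out 5 libraries with podocyte transcripts was chosen after seeing the data. The script was tested on simulated counts. The members and gene lists were chosen with earlier results of these data known. Genes given in full were the 3 with the smallest p in each treatment comparison, members called against the common direction, and a fixed list of key genes; up to 4 genes of each other list were named by smallest p. Library values of Pola1, Mcm10, Pole2 in further subsets and Gins1, and the examples in comparisons between subsets, were chosen after their values were seen. No replicates were merged. Total counts of 2537901 to 53788643 per library limit precision for low genes; floors cover counting error only.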

Additional observations from a re-analysis of the deposited data

Results flagged for a closer look

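For 23 results the effect of treatment in a subset differed from that in another by the interaction term of the edgeR quasi-likelihood model, adjusted over all genes. The share with a larger effect was near that of all genes for TFH against Tconv (15.7% against 14.4%) and TFR against Treg cells (3.92% against 5.24%). It was 5.88% against 0.883% for Treg against Tconv and 15.7% against 3.3% for TFR against TFH cells. For TFR against TFH cells the count was 0 in limma voom and in the edgeR fit of the libraries compared. Values are differences of log2 fold changes ± standard error.

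The effect in Treg cells exceeded that in Tconv cells for Mcm3 (0.81 ± 0.17, adjusted p = 0.013), Mcm5 (0.94 ± 0.23, adjusted p = 0.026) and Pole (1.66 ± 0.26, adjusted p = 0.00063). In TFR against Treg cells it was larger for Mcm2 (1.32 ± 0.26, adjusted p = 0.0031) and Mcm5 (1.06 ± 0.23, adjusted p = 0.0062).

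In TFH against Tconv cells it was larger for the helicase genes Mcm2 (0.76 ± 0.26, adjusted p = 0.045), Mcm3 (0.60 ± 0.18, adjusted p = 0.026) and Mcm5 (1.36 ± 0.23, adjusted p = 0.00068). The same held for Cdc6 (3.17 ± 0.81, adjusted p = 0.013), Mcm10 (3.34 ± 1.01, adjusted p = 0.028) and Pole (0.78 ± 0.26, adjusted p = 0.042), and the effect was smaller for Gins3 (-2.13 ± 0.60, adjusted p = 0.022). Fitted differences of 9.70 ± 2.28 for Gins1 (adjusted p = 0.0095) and 9.38 ± 1.17 for Pole2 (adjusted p = 4.4e-05) rest on a control TFH group with no read and are no measure of size.

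In TFR against TFH cells it was larger for Mcm2 (0.95 ± 0.26, adjusted p = 0.03), Mcm6 (0.86 ± 0.17, adjusted p = 0.0051), Pcna (0.59 ± 0.16, adjusted p = 0.027) and Gins3 (2.51 ± 0.61, adjusted p = 0.016). It was also larger for Tyms (1.5 ± 0.42, adjusted p = 0.035), Lig1 (1.41 ± 0.36, adjusted p = 0.021), Fen1 (1.06 ± 0.32, adjusted p = 0.047) and Brca1 (1.58 ± 0.33, adjusted p = 0.0066). The value for Pole2, -9.33 ± 1.17 (adjusted p = 0.00014), again rests on the control TFH group with no read.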

How the results depend on the processing

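Of the 51 genes, the count for treatment in TFR cells stayed within 1.5 times its value of 25 under every alternative run, and no single gene named here changed direction with its call. The cause of the changes below was not tested. The counts below stand without the share of all genes called under the same setting. A change in them cannot be told from a change in calls at large, except where a share is given above. Counts of 0 reads in control TFH libraries limit what can be said of genes below the floor of 3 reads.

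With relative log expression factors the count for treatment in Tconv cells was 3 in place of 5, as it was with receptor, haemoglobin and mitochondrial genes left out, and 2 with libraries thinned. With no filter on low counts the count for Treg minus Tconv effects was 6 in place of 3.

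In DESeq2 the counts were 10 for treatment in Tconv (main 5), 24 in Treg (15), 13 for control Treg against Tconv (6), 9 for control TFR against Treg (3) and 14 for treated TFR against Treg (7). The differences of effects were 10 for Treg minus Tconv (3), 5 for TFR minus Treg (2) and 14 for TFR minus TFH (9).

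In limma voom with quality weights the treatment counts were 28 in Tconv, 41 in Treg and 11 in TFH cells. In control mice it called 26 for Treg against Tconv, 5 for TFH against Tconv (2 higher and 3 lower, a turned direction against 11 and 5), 1 for TFR against Treg and 1 for TFR against TFH. In treated mice it called 48 for Treg against Tconv, 34 for TFH against Tconv, 48 for TFR against Treg and 46 for TFR against TFH. Of the differences, Treg minus Tconv had 23 and TFR minus TFH 0, with 14 at an unadjusted p below 0.05.

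Fits on only the libraries compared gave treatment counts of 20 in Tconv, 41 in Treg and 7 in TFH cells. In control mice they gave 17 for Treg against Tconv, 3 for TFH against Tconv (1 higher and 2 lower, a turned direction) and 0 for TFR against TFH, with 6 at an unadjusted p below 0.05. In treated mice they gave 48 for Treg against Tconv, 34 for TFH against Tconv, 45 for TFR against Treg and 41 for TFR against TFH. The differences were 27 for Treg minus Tconv, 5 for TFH minus Tconv, 4 for TFR minus Treg and 0 for TFR minus TFH, with 13 at an unadjusted p below 0.05.

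Without the 4 libraries of the planned kidney rule the counts were 1 for treatment in Tconv, 3 for control Treg against Tconv, 7 for control TFH against Tconv (3 higher and 4 lower, a turned direction), 4 for treated TFR against Treg and 12 for treated TFR against TFH, with 2 for TFH minus Tconv and 2 for TFR minus TFH effects. Without the 5 libraries they were 1, 3, 6 (2 higher and 4 lower, a turned direction), 2 and 11 in the same order, with 7 for control TFR against TFH, 11 for treated TFH against Tconv, and 2 and 2 for the differences.

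The labels do not say whether replicate numbers pair the libraries, and correlations between deviations from means of 3 libraries cannot settle it. Correlations of same-numbered deviations lay between -0.07 and 0.08 except for treated TFR with Treg (-0.702, 0.589 and -0.711) and with TFH (-0.637, 0.499 and -0.685). Treated TFR 1, treated Treg 3 and treated TFH 3, which enter these values, are libraries with podocyte transcripts, and their part in them was not tested. In no comparison did every library correlate best with its own number. With the replicate block the treatment counts were 3 in Tconv, 16 in Treg, 19 in TFH and 23 in TFR cells.

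Without single libraries the treatment counts ran from 1 to 4 in Tconv, 7 to 13 in Treg, 16 to 24 in TFH and 21 to 25 in TFR cells. In control mice they ran from 4 to 5 for Treg against Tconv, 11 to 18 for TFH against Tconv, 2 to 7 for TFR against Treg (7 without control TFR 1, with 3 higher and 4 lower, a turned direction) and 12 to 14 for TFR against TFH. In treated mice they ran from 15 to 17 for Treg against Tconv, 6 to 13 for TFH against Tconv, 2 to 5 for TFR against Treg and 15 to 19 for TFR against TFH. The differences ran from 1 to 3 for Treg minus Tconv, 4 to 14 for TFH minus Tconv, 2 to 6 for TFR minus Treg and 4 to 14 for TFR minus TFH.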
